A study of Mus musculus and Rattus norvegicus with 21 samples.

Results

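Chromatin at the nuclear genes of the mitochondrial respiratory chain was described in mouse thyroid. The genes were chosen by name: all protein-coding genes of the nuclear genome whose symbol starts with Nduf, Uqcr or Atp5, with Sdh followed by a to d, or with Cox4 to Cox8. The RefSeq annotation of GRCm38 (mm10) held 100 such genes, and 99 of them had a curated transcription start site, among 21000 protein-coding genes with one. Ndufb4b, known only from predicted transcripts, was the gene left out. The 99 genes comprised 38 subunit genes of complex I (7 core, 31 accessory), 4 of complex II, 8 of complex III, 20 of complex IV (Ndufa4 and its paralog Ndufa4l2 counted here), 17 of complex V and 12 genes of assembly factors. Cyc1, the cytochrome c1 gene of complex III, was not matched by these names.

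The respiratory chain lies in the inner mitochondrial membrane. Complex I takes electrons from NADH and complex II takes them from succinate, both pass them through ubiquinone to complex III, and cytochrome c carries them on to complex IV, which reduces oxygen. Complexes I, III and IV pump protons, and complex V, the ATP synthase, makes ATP from the proton gradient. Most subunits are encoded in the nucleus, the others in mitochondrial DNA. In thyroid follicular cells the same respiration feeds iodide uptake and the making of thyroid hormone. H3K4me3 is a histone mark of active promoters, H3K27me3 is the mark laid down by Polycomb complexes, and NKX2.1 and PAX8 are transcription factors that define the follicular cell.

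The histone marks were profiled by ChIP-seq in thyroid glands of C57BL/6 mice labelled 1 month old, from Glis3-deficient animals (Glis3KO, labelled B6.Glis3<tm2(mCherry)Amj>) and wild-type (WT) animals. The glands came from mice on a low-iodine diet (LID, TD.95125) or on the NIH-31 normal diet (ND), giving the groups Glis3KO-LID, WT-LID, Glis3KO-ND and WT-ND, each with 1 library per mark. NKX2.1 and PAX8 were each profiled in 1 library labelled WT, 1 month old, on the LID, whereas the study's methods describe older Glis3-EGFP mice, which make a GLIS3-EGFP fusion protein, for factor ChIP. Factor and histone libraries may therefore come from different mice, and the methods also give another allele number for Glis3KO than the labels. With 1 library per group no spread between animals can be had, so every difference below compares libraries, with no test. The deposited lists hold peak positions without a score, and the read depth behind them is unknown.

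H3K4me3 lists held 15692 to 17044 peaks, with the fewest in Glis3KO-LID, where they also covered the fewest bases (22.56 Mb, against 25.44 to 26.73 Mb in the other 3). The H3K27me3 list of Glis3KO-LID, with 18040 peaks, stood apart from the other 3 (2631 to 4116 peaks). The factor lists held 46636 peaks for NKX2.1 and 51586 for PAX8. Of 12 thyroid follicular markers, H3K4me3 lay within 1 kb of a start site for 12, 10, 12 and 11 in Glis3KO-LID, WT-LID, Glis3KO-ND and WT-ND. The thyroglobulin gene Tg was not covered in either WT library. No library had H3K4me3 at any of 10 skeletal muscle, 5 heart and slow muscle, 5 immune or 5 testis markers. In the same order of libraries, 3, 3, 2 and 4 of 7 fat markers and 5, 4, 2 and 3 of 5 endothelial markers were marked. The endothelial counts were thus higher in both LID libraries than in both ND libraries. Whether other cells took part in the values below was not tested, and in whole glands fewer cells with a mark cannot be told apart from less of the mark per cell.

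Sequences of promoters are shown first, since a minority of them held letters that were less frequent among all promoters. The choice of names did not use these letters. RefSeq promoter sequences (GRCm38.p6, from 250 bases before to 50 bases after the start) were at hand for 81 of the 99 genes. Exact letters were searched on both strands and counted beside the 16853 promoters of all protein-coding genes of the same length. A match is a description and not a binding site. AAGATGGC, a core of the motif of YY1, was in 10 of 81 respiratory chain promoters (12.3%), in 4.83% of the promoters of genes with H3K4me3 in all 4 libraries and in 3.32% of all promoters. The 10 genes were Atp5j2, Atp5pb, Ndufa3, Ndufa9, Ndufaf8, Ndufb8, Ndufc1, Ndufs4, Ndufs6 and Ndufs7, 7 of them subunits of complex I. In 9 of the 10 the letters stood in the sense direction within the first 50 transcribed bases, against 244 of the 560 promoters with these letters among all genes (43.6%). In 8 of the 10 the ATG inside AAGATGGC was the annotated start of the protein, against 29.6% for all genes, so that the letters of a YY1 motif and of a translation start fell together. Ndufs4 and Ndufs7, subunits of complex I, and Ndufc1, a small membrane subunit of the same complex, are shown to place these letters, which are in capitals. The positions are chr13:114388045-114388344 (minus strand), chr10:80249199-80249498 (plus strand) and chr3:51408906-51409205 (minus strand).
Ndufs4: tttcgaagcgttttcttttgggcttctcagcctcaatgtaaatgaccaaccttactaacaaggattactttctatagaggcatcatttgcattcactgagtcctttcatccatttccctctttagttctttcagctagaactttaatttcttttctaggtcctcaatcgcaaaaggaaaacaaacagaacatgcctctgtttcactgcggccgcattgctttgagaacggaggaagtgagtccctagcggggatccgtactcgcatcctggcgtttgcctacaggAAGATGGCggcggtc
Ndufs7: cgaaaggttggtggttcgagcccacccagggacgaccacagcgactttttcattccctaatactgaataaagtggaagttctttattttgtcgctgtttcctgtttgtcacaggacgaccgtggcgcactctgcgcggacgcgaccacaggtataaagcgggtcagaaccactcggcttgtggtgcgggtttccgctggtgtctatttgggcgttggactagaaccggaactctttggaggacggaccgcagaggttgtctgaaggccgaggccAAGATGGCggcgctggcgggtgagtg
Ndufc1: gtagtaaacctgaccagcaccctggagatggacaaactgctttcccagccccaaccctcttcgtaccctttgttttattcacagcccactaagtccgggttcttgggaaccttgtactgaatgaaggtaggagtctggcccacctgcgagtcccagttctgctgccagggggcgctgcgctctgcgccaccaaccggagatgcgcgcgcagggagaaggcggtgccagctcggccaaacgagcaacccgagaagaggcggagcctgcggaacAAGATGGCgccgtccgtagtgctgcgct

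TGCGCATGC, a core of the motif of NRF1, was in 6 promoters (Atp5g2, Atp5l, Ndufa6, Ndufa8, Ndufaf4 and Uqcrc1), or 7.41%, against 3.33% of promoters marked in all 4 libraries and 2.15% of all promoters. NRF1 is a transcription factor known for its control of nuclear genes for mitochondria. The shorter GCGCATG, which lies inside TGCGCATGC, was in 15 promoters (18.5%, against 7.58% and 5.11%). Ndufa8, an accessory subunit of complex I, and Uqcrc1, a core protein of complex III, are shown with TGCGCATGC or its reverse complement in capitals. In Uqcrc1 matches on both strands overlapped just after the start. The positions are chr2:36049289-36049588 (minus strand) and chr9:108936398-108936697 (plus strand).
Ndufa8: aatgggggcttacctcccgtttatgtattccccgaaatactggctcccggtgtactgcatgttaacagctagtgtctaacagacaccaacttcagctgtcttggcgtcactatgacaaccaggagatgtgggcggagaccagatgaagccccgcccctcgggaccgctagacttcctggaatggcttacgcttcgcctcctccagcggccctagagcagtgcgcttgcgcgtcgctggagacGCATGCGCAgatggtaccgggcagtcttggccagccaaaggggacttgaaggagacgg
Uqcrc1: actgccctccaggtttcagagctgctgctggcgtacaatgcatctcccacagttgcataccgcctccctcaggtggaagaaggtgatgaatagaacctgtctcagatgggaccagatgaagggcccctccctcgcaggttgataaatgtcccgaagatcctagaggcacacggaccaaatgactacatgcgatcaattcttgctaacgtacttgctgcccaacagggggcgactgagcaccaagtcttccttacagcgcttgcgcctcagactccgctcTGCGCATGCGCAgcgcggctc

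TCAAGGTCA, an element of the estrogen-related receptors (ERR), which act on genes of energy metabolism, was in 2 promoters, Atp5g3 and Sdhd (2.47%, against 0.229% and 0.326%). The shorter AAGGTCA inside it was in 8 (9.88%, against 2.63% and 4%), 4 of them genes of complex V. In both Atp5g3 and Sdhd the element was preceded by C, so that it overlapped CTCAAG, a core of the NKX2 family motif. CCGGAAGT, an ETS motif bound by GABPA, was in 5 promoters (6.17%, against 8.93% and 5.59%), which is within the range of the other genes. Ribosomal protein promoters, taken as a second set of widely active genes, held CCGGAAGT in 17.4%, AAGATGGC in 7.25%, TGCGCATGC in 2.9% and TCAAGGTCA in 0%. Atp5g3, 1 of 3 genes for the c ring of ATP synthase, Sdhd, a membrane anchor of complex II, and Uqcrh, the hinge protein of complex III, are shown. Capitals mark the ERR element with CTCAAG in Atp5g3 and Sdhd, GCGTGA (a part of the PAX motif) in Sdhd, and CCGGAAGT and CTCAAG in Uqcrh, each on either strand. The positions are chr2:73911277-73911576 (minus strand), chr9:50603800-50604099 (minus strand) and chr4:116075021-116075320 (minus strand).
Atp5g3: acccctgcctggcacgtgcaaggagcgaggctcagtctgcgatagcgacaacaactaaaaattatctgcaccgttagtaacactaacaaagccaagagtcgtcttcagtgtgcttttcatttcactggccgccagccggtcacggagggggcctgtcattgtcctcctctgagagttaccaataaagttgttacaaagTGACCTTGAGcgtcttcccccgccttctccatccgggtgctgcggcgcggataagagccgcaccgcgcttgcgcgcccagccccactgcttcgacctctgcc
Sdhd: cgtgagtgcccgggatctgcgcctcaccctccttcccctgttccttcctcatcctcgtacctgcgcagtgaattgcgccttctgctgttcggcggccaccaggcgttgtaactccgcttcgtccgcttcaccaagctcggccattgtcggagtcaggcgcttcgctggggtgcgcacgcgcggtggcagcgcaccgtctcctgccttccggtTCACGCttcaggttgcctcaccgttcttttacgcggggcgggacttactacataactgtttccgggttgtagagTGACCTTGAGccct
Uqcrh: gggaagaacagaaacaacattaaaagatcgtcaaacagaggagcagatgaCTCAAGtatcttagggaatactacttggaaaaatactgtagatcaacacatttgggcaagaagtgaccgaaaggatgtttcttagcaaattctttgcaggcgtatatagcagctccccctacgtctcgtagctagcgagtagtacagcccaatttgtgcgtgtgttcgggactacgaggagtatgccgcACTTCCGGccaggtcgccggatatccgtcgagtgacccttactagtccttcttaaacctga

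Other promoter letters were nearer to those of all genes. GGGCGGG, an SP1 motif, was in 37% of respiratory chain promoters, against 52.1% of promoters marked in all 4 libraries and 35.5% of all. CCAAT was in 43.2% (38.3% and 39.5%) and TATAAA in 11.1% (6.17% and 13.3%). Promoters rich in CpG, with over 50% GC and an observed over expected CpG ratio above 0.6, made up 77.8%, against 75.5% of marked and 47.3% of all promoters. All 11 assembly factor promoters and 8 of 14 of complex IV were of this kind.

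**Figure D1:**
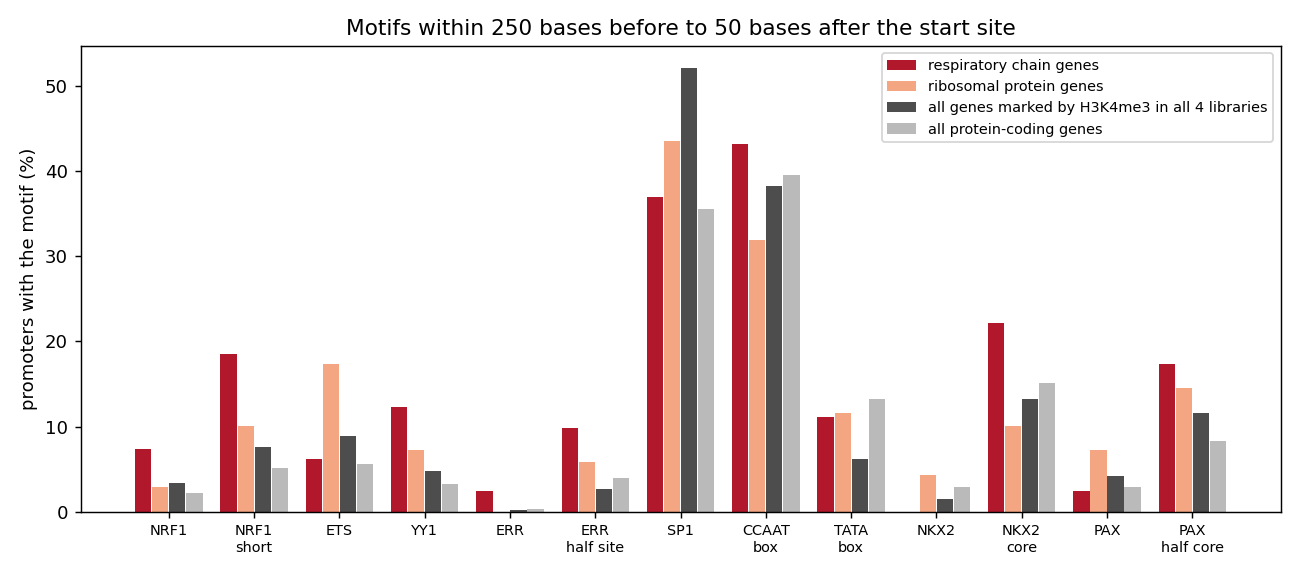
Share of promoters (%) that hold each motif on either strand, in 81 respiratory chain genes, 69 ribosomal protein genes, genes with H3K4me3 in all 4 libraries and all protein-coding genes. The respiratory chain bar was the highest of the 4 for NRF1, YY1 and ERR letters and for the NKX2 and PAX cores, and lay below that of marked genes for ETS and SP1 letters.

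H3K4me3 was used to ask which of the genes carried the mark of an active promoter in the gland. It lay within 1 kb of a start site in all 4 libraries for 88 of 99 respiratory chain genes (88.9%), against 56.6% of all protein-coding genes and 90% of 90 ribosomal protein genes. By library the counts were 88 in Glis3KO-LID, 92 in WT-LID, 92 in Glis3KO-ND and 92 in WT-ND, beside 60.1%, 63%, 62.5% and 62.2% of all genes. In the 3 libraries other than Glis3KO-LID, a set chosen after seeing the data, 91 genes were marked throughout, against 59.1% of all genes. All 4 genes of complex II, all 8 of complex III and all 12 assembly factors were marked in every library, as were 36 of 38 of complex I and 16 of 17 of complex V. Complex IV, with 12 of 20, was the class with the lowest share.

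The genes without the mark were tissue forms and paralogs. Cox6a2 and Cox8b, forms used in heart and skeletal muscle, Cox7b2 and Cox8c, known from testis, and Ndufb4c, a gene like Ndufb4, had no H3K4me3 within 1 kb in any library, and the nearest peak lay 8265 to 109338 bp away. The widely used partners Cox6a1, Cox7b and Cox8a were marked in all 4. Cox6a1 had 1934 bp in Glis3KO-LID, 1793 bp in WT-LID, 1910 bp in Glis3KO-ND and 1494 bp in WT-ND. Values here and below are bases covered by H3K4me3 in the window of 1 kb either side of the main start site. Cox7b had 937, 1039, 1055 and 920 bp, and Cox8a had 895, 1222, 1187 and 1170 bp, in the same order of libraries.

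A further 3 genes were marked in a single library each. Cox4i2, the form of subunit 4 known from lung and low oxygen, had 627 bp in WT-LID alone, while Cox4i1 had 1930 bp up to the whole window in all 4. Cox7a1, the muscle form, had 789 bp in Glis3KO-ND alone, while Cox7a2 had 1020 to 1669 bp. Ndufa4l2, a paralog of Ndufa4 that hypoxia-inducible factor turns on, had 635 bp in WT-ND alone, while Ndufa4 had 1644 bp up to the whole window.

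Atp5d, Ndufs8 and Cox6b2 lacked the mark in Glis3KO-LID only. Such losses were also found among all genes, of which 12415 were marked in the 3 libraries other than Glis3KO-LID and 11895 in all 4. For the respiratory chain the numbers were 91 and 88. Atp5d, the delta subunit of the F1 part of ATP synthase, had 0 bp in Glis3KO-LID against 884 bp in WT-LID, and 1533 bp in Glis3KO-ND against 1441 bp in WT-ND. Its nearest Glis3KO-LID peak lay 2448 bp from the main start site. That peak, chr10:80138030-80139827, covered the upstream end of the annotated gene (80138698), which is not a curated start site. Ndufs8, a core subunit of complex I that holds iron-sulfur clusters, had 0 bp in Glis3KO-LID against 1623 bp in WT-LID, and 912 bp in Glis3KO-ND against 1776 bp in WT-ND. Its nearest Glis3KO-LID peak lay 5362 bp away. Cox6b2, known from testis, had 0 bp in Glis3KO-LID against 1050 bp in WT-LID, and 1097 bp in Glis3KO-ND against 1044 bp in WT-ND. Cox6b2 thus stood apart from Cox7b2 and Cox8c, which had no H3K4me3 in any library. No score is at hand to tell a missing peak from a weak one.

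Within the window the mark was somewhat wider at the 88 marked genes than at all marked genes, while full peak lengths were near those of all marked genes. The median of covered bases over the 88 genes was 1386 bp in Glis3KO-LID, 1640 bp in WT-LID, 1544 bp in Glis3KO-ND and 1611 bp in WT-ND, against 1322, 1505, 1447 and 1462 bp for all genes marked in all 4. Ribosomal protein genes had 1339, 1625, 1534 and 1612 bp. Over all 99 genes, unmarked ones included, the medians were 1312, 1592, 1437 and 1570 bp, against 906, 1095, 1049 and 1054 bp over all 21000 genes. The full peaks, not cut at 1 kb, had medians of 1539, 1869, 1694 and 1719 bp, against 1542, 1774, 1691 and 1715 bp for all marked genes and 1623, 1945, 1841 and 1862 bp for ribosomal protein genes. In WT-ND the peaks reached a median of 656.5 bp upstream and 1070 bp downstream of the start, against 605 and 1082 bp for all marked genes.

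Class medians in WT-ND, unmarked genes included, ran between 1086 bp in complex IV and 1843 bp in complex II, with 1634 bp in complex I, 1588 bp in complex III, 1599 bp in complex V and 1634 bp in assembly factors. Single genes spread more widely. Ndufs1, the largest core subunit of complex I, was covered over the whole window in every library. Atp5c1, the gamma subunit that turns inside ATP synthase, had 1974 bp in Glis3KO-LID, the whole window in WT-LID, 1988 bp in Glis3KO-ND and 1983 bp in WT-ND. Ndufb3, an accessory subunit, had at least 1955 bp and the assembly factor Ndufaf3 at least 1918 bp in each library. Narrow marks lay at Cox7b (920 to 1055 bp), Sdhaf4 (909 to 1156 bp), Ndufv1 (892 to 1209 bp) and Cox7c (1010 to 1128 bp). Ndufv1, which binds NADH and FMN, and Ndufs1 belong to the same module of complex I, so both ends of the range occurred among its core subunits.

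**Figure D2:**
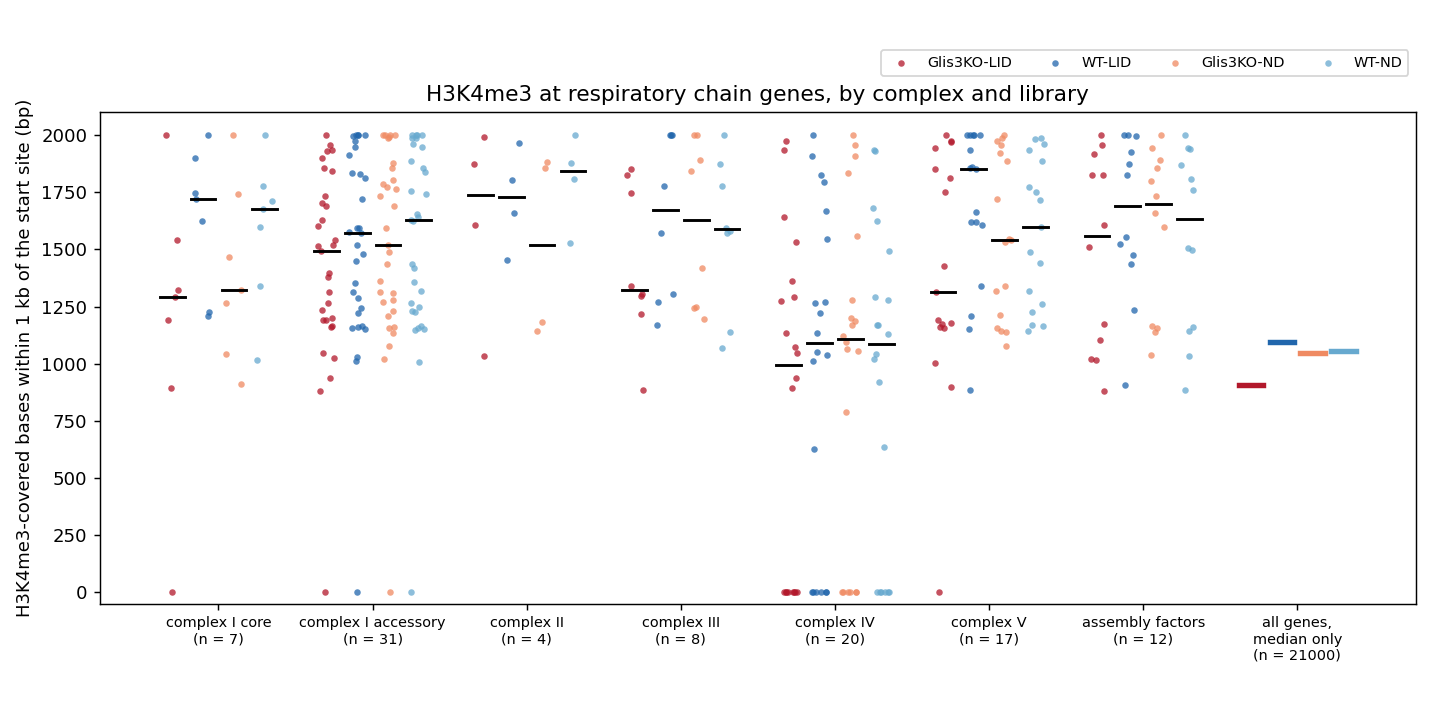
Bases covered by H3K4me3 within 1 kb of the main start site (bp), with 1 point for each gene, by complex and library. Black bars are medians of the class, and coloured bars at the right are medians over all 21000 genes. Most points lie between about 1000 bp and the whole window, and complex IV holds most of the points at 0.

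Covered bases were more at genes with a neighbour on the other strand. A start site of another protein-coding gene lay within 1 kb upstream on the opposite strand for 28 of 99 respiratory chain genes (28.3%), against 8.24% of all genes and 13.3% of ribosomal protein genes. Among genes marked in all 4 libraries the shares were 31.8% and 13.6%. The share was 3 of 4 in complex II, 5 of 12 in assembly factors, 3 of 8 in complex III, 11 of 38 in complex I, 4 of 17 in complex V and 2 of 20 in complex IV. The 28 genes had median widths of 1826 bp in Glis3KO-LID, 1970 bp in WT-LID, 1885 bp in Glis3KO-ND and 1932 bp in WT-ND, against 1226, 1501, 1280 and 1350 bp in the other 60 marked genes. For all genes the medians were 1752, 1882, 1824 and 1817 bp with such a neighbour (n = 1612) and 1282, 1422, 1372 and 1396 bp without (n = 10283), so the gap was found outside the respiratory chain too. A covered base at such a promoter cannot be given to 1 of the 2 genes.

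The neighbours were of many kinds, and the pairs named here were picked after their names were seen. Ndufs1 began 9 bp from Eef1b2, a translation elongation factor subunit, and Ndufa7 began 10 bp from Rps28, a ribosomal protein. Sdhd began 52 bp from Timm8b, an import chaperone of the space between the mitochondrial membranes, and Ndufb5 began 308 bp from Mrpl47, a mitochondrial ribosomal protein. Ndufs3 began 19 bp from Kbtbd4 and Sdhaf2 began 35 bp from Cpsf7. Atp5j and Gabpa, which encodes the ETS factor GABPA, lay on opposite strands with starts 501 bp apart, and both windows were covered over at least 1722 bp in every library. They overlap head to head and are not counted among the 28.

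Glis3KO against WT was the comparison of genotype on each diet. On the LID, 22 genes had more covered bases in Glis3KO and 65 had fewer, of 92 covered in either library (23.9% and 70.7%), against 26.5% and 67% of all genes. The median difference was -91 bp for respiratory chain genes and -105 bp for all genes. On the ND, 37 had more and 52 fewer of 93 (39.8% and 55.9%), against 44.2% and 48.4% of all genes, with median differences of -9 and 0 bp. With differences of at least 200 bp alone, 2 had more and 33 fewer on the LID, against 8.03% and 34.9% of all genes, and 14 had more and 18 fewer on the ND, against 15.7% and 17.8%. The shares lay near those of all genes, with the widest gaps for fewer bases on the ND (55.9% against 48.4%) and for gains of at least 200 bp on the LID (2.17% against 8.03%).

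By complex, the classes are small and are set beside the shares of all genes on the LID (26.5% more, 67% fewer) and on the ND (44.2% and 48.4%). Of the 7 complex I core genes, none had more and 6 fewer bases in Glis3KO on the LID, and 2 had more and 4 fewer on the ND. The complex I accessory genes had 9 more and 19 fewer on the LID (63.3% fewer) and 9 more and 20 fewer on the ND (66.7%). Complex II had 3 more and 1 fewer on the LID but 1 more and 3 fewer on the ND. Complex III had 1 more and 7 fewer on the LID but 5 more and 2 fewer on the ND, and complex IV had 3 more and 11 fewer on the LID but 9 more and 6 fewer on the ND. Complex V had 3 more and 13 fewer on the LID and 7 more and 10 fewer on the ND, and assembly factors had 3 and 8 on the LID and 4 and 7 on the ND. The order of the classes thus differed between the diets.

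Fewer bases in Glis3KO on both diets were found at 33 of the 94 genes covered in any library (35.1%) and more at 6 (6.38%), against 32.3% and 11.8% of all genes and 37% and 8.64% of ribosomal protein genes. After Ndufs8, the largest shortfall common to both diets was at Sdhb, the iron-sulfur subunit of complex II. Sdhb had 1036 bp in Glis3KO-LID against 1802 bp in WT-LID, and 1183 bp in Glis3KO-ND against 1807 bp in WT-ND. Both Glis3KO libraries were thus below both WT libraries. Ndufv2, an iron-sulfur subunit of the NADH module, had 1292 against 1746 bp on the LID and 1264 against 1597 bp on the ND. Atp5g2, another c ring gene, had 1160 against 1936 bp on the LID and 1215 against 1491 bp on the ND. The assembly factor Ndufaf1 had 1173 against 1438 bp and 1140 against 1507 bp.

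More bases in Glis3KO on both diets were found at Ndufc1, Cox6a1, Uqcrc1, Sdhaf4 and Ndufa3 and at 1 other gene. By the smaller of its differences on the 2 diets, each of the 5 named differed by less than the 5 genes above. Ndufc1 had 1202 bp in Glis3KO-LID against 1030 bp in WT-LID, and 1158 bp in Glis3KO-ND against 1009 bp in WT-ND. Cox6a1 (above) differed by 141 bp on the LID and 416 bp on the ND, Uqcrc1 by 127 bp on each diet, Sdhaf4 by 112 and 123 bp, and Ndufa3, an accessory subunit, by 181 and 84 bp.

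**Figure D3:**
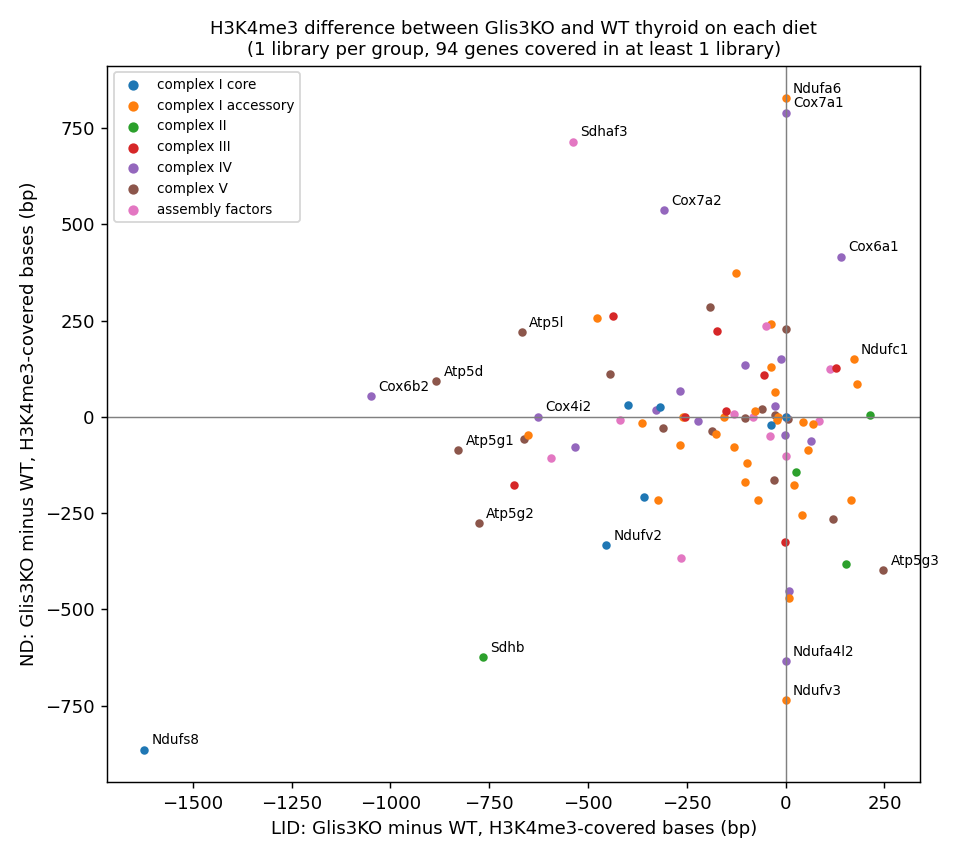
Difference in H3K4me3-covered bases between Glis3KO and WT thyroid (bp), on the LID (x axis) and on the ND (y axis), for the 94 respiratory chain genes covered in at least 1 library. Points left of 0 had fewer bases in Glis3KO on the LID, as 65 genes did, and Ndufs8 and Sdhb lie low on both axes.

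Diet was compared within each genotype. WT-LID had more bases than WT-ND at 51 and fewer at 36 of 93 genes (54.8% and 38.7%), against 50.6% and 41.2% of all genes. Glis3KO-LID had more than Glis3KO-ND at 33 and fewer at 57 of 92 (35.9% and 62%), against 32.2% and 61.6% of all genes. In both genotypes the members again followed all genes. More bases on the LID in both genotypes were found at 18 of 94 genes (19.1%) and fewer at 21 (22.3%), against 16.5% and 25.5% of all genes. Ndufs5, an accessory subunit, led with 1516 bp in Glis3KO-LID against 1135 bp in Glis3KO-ND and 1448 bp in WT-LID against 1154 bp in WT-ND. It was followed by Uqcrc1 with 99 bp more in each genotype, and by Atp5g1, Cox7a2l and Ndufaf7, each with 90 to 94 bp more in Glis3KO and 376 to 836 bp more in WT. Fewer bases on the LID were found, beside Atp5d and Ndufs8, at Ndufaf4 (1609 against 1858 bp in Glis3KO, 1524 against 1870 bp in WT), Ndufa12 (1628 against 1804 bp, 1572 against 1889 bp) and Cox5a (1534 against 1834 bp, 1547 against 1683 bp).

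H3K27me3 was nearly absent from the respiratory chain. It lay within 1 kb of 2 genes in Glis3KO-LID and of 1 in each of WT-LID, Glis3KO-ND and WT-ND, against 17.5%, 6.5%, 8.68% and 6.44% of all genes. Ribosomal protein genes were much the same, with 1 of 90 in Glis3KO-LID and none in WT-LID, Glis3KO-ND or WT-ND. The near absence was thus not particular to the respiratory chain. The gene marked in all 4 was Ndufa4l2, with the whole window covered in Glis3KO-LID against 1296 bp in WT-LID, and the whole window in Glis3KO-ND against 1373 bp in WT-ND. Both Glis3KO libraries were thus above both WT libraries. Over the whole genome, too, the H3K27me3 lists of Glis3KO covered more bases than those of WT. They covered 55.11 Mb in Glis3KO-LID and 13.26 Mb in Glis3KO-ND, against 7.502 Mb in WT-LID and 7.472 Mb in WT-ND. In WT-ND Ndufa4l2 carried both marks within the window. The other gene was Cox4i2, with 1789 bp in Glis3KO-LID and none in the other 3 libraries. When every list was shortened to the 2631 widest peaks, Ndufa4l2 was the only gene counted in Glis3KO-LID, so Cox4i2 rests on the long list of that library. None of the genes marked by H3K4me3 in all 4 libraries had H3K27me3 within 1 kb in any of them.

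NKX2.1 and PAX8 were compared by their peaks at promoters. A peak of NKX2.1 overlapped the 1 kb around a start site of 39 genes (39.4%, against 21.1% of all genes) and a peak of PAX8 that of 42 (42.4%, against 29.3%). Both were found at 15 genes (15.2%, against 12.1%) and overlapping peaks of the 2 factors at 12 (12.1%, against 8.26%). NKX2.1 alone was at 24 genes, PAX8 alone at 27 and neither at 33 of the 99. Among all 21000 genes the counts were 1897, 3610 and 12955. Since promoters with H3K4me3 hold most promoter peaks, the shares were also taken among genes marked in all 4 libraries. There NKX2.1 was at 44.3% of respiratory chain genes, 42% of ribosomal protein genes and 31.6% of all genes. PAX8 was at 45.5%, 42% and 45.4%, both factors at 17%, 22.2% and 18.2%, and overlapping peaks at 13.6%, 16% and 11.9%. Among marked genes, therefore, the respiratory chain lay above all genes for NKX2.1 and level with them for PAX8.

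By complex, NKX2.1 and PAX8 peaks were at 18 and 19 of the 38 complex I genes, 1 and 3 of the 4 of complex II, 4 and 4 of the 8 of complex III, 4 and 7 of the 20 of complex IV and 6 and 6 of the 17 of complex V. Among assembly factors NKX2.1 was at 6 and PAX8 at 3 of 12. In complex II the NKX2.1 peak lay at Sdhb, 25 bp downstream of the start, and PAX8 peaks lay at the other 3 genes. In complex V no gene other than Atp5g3 had both factors, although NKX2.1 was at all 3 c ring genes, Atp5g1, Atp5g2 and Atp5g3. Uqcr10, a small subunit of complex III, had 3 NKX2.1 peaks, at -1009, -322 and 400 bp, and no PAX8 peak.

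**Figure D4:**
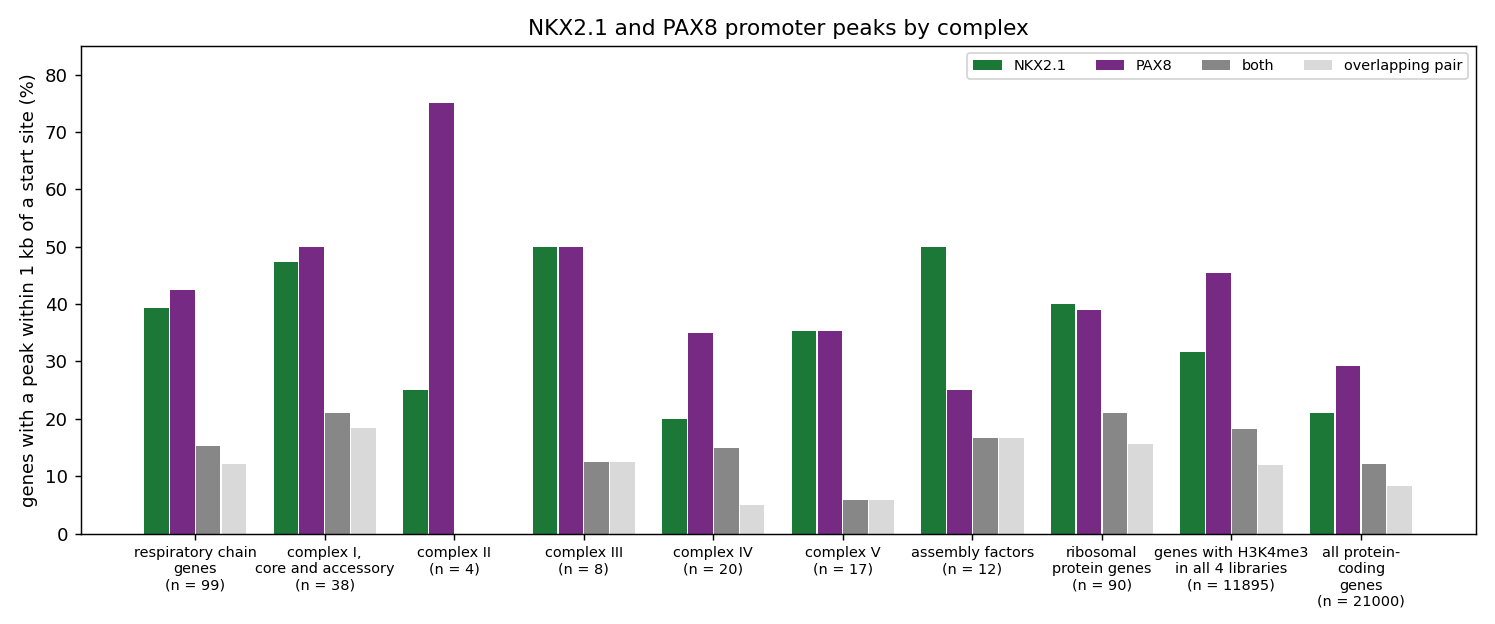
Share of genes (%) with an NKX2.1 peak, a PAX8 peak, both, or an overlapping pair within 1 kb of a start site, by complex, with ribosomal protein genes, genes with H3K4me3 in all 4 libraries and all protein-coding genes at the right. The NKX2.1 and PAX8 bars of the respiratory chain, over all 99 genes, reach 39.4% and 42.4%, against 21.1% and 29.3% of all genes. Genes with H3K4me3 in all 4 libraries reach 31.6% and 45.4%. The respiratory chain genes among them, not drawn apart, have 44.3% and 45.5%.

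The peaks sat close to the start sites. There were 45 NKX2.1 peaks with a median distance of 177 bp between midpoint and nearest start, against 295 bp for all genes, and 47 PAX8 peaks with 152 bp, against 251 bp. Midpoints within 200 bp made up 51.1% of NKX2.1 peaks, against 40.7% for all genes, and 63.8% of PAX8 peaks, against 43.9%. NKX2.1 midpoints were upstream in 62.2% (59.7% for all genes) and PAX8 midpoints in 51.1% (50.3%). H3K4me3 of WT-LID overlapped 93.3% of the NKX2.1 and 95.7% of the PAX8 peaks, against 80.5% and 85.3% for all genes. The exceptions were the PAX8 peak of Cox7a1, 1 of the 2 PAX8 peaks of Ndufa6, and NKX2.1 peaks of Ndufa3, Ndufa6 and Ndufs7. The PAX8 peak of Cox7a1, at -71 bp, was the only factor peak at a gene without H3K4me3 in WT-LID. Of the respiratory chain genes 92.9% were marked in WT-LID, against 63% of all genes. The distances and overlaps of this paragraph were not taken among marked genes alone.

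Overlapping pairs lay at Atp5g3, Cox7c, Ndufa12, Ndufa5, Ndufa6, Ndufa8, Ndufaf3, Ndufb4, Ndufs3, Ndufs4, Sdhaf1 and Uqcrh, with midpoints 6 to 241 bp apart. At Atp5g3 the NKX2.1 peak chr2:73911242-73911541 and the PAX8 peak chr2:73911259-73911558 (mm10) had their midpoints at -65 and -82 bp, and both held the ERR element shown above. At Uqcrh the NKX2.1 peak chr4:116074920-116075219 and the PAX8 peak chr4:116074854-116075153 were centred 1 and 67 bp downstream. At Ndufs4 the peaks chr13:114387912-114388211 and chr13:114387782-114388081 were centred 33 and 163 bp downstream. At Ndufa8 the peaks chr2:36049278-36049577 and chr2:36049037-36049336 had their midpoints at -89 and 152 bp. Pairs were tightest at Ndufb4 (6 bp), Atp5g3 (17 bp) and Ndufs3 (20 bp). Cox5a, Ndufa4 and Ndufs7 had both factors without overlap.

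**Figure D5:**
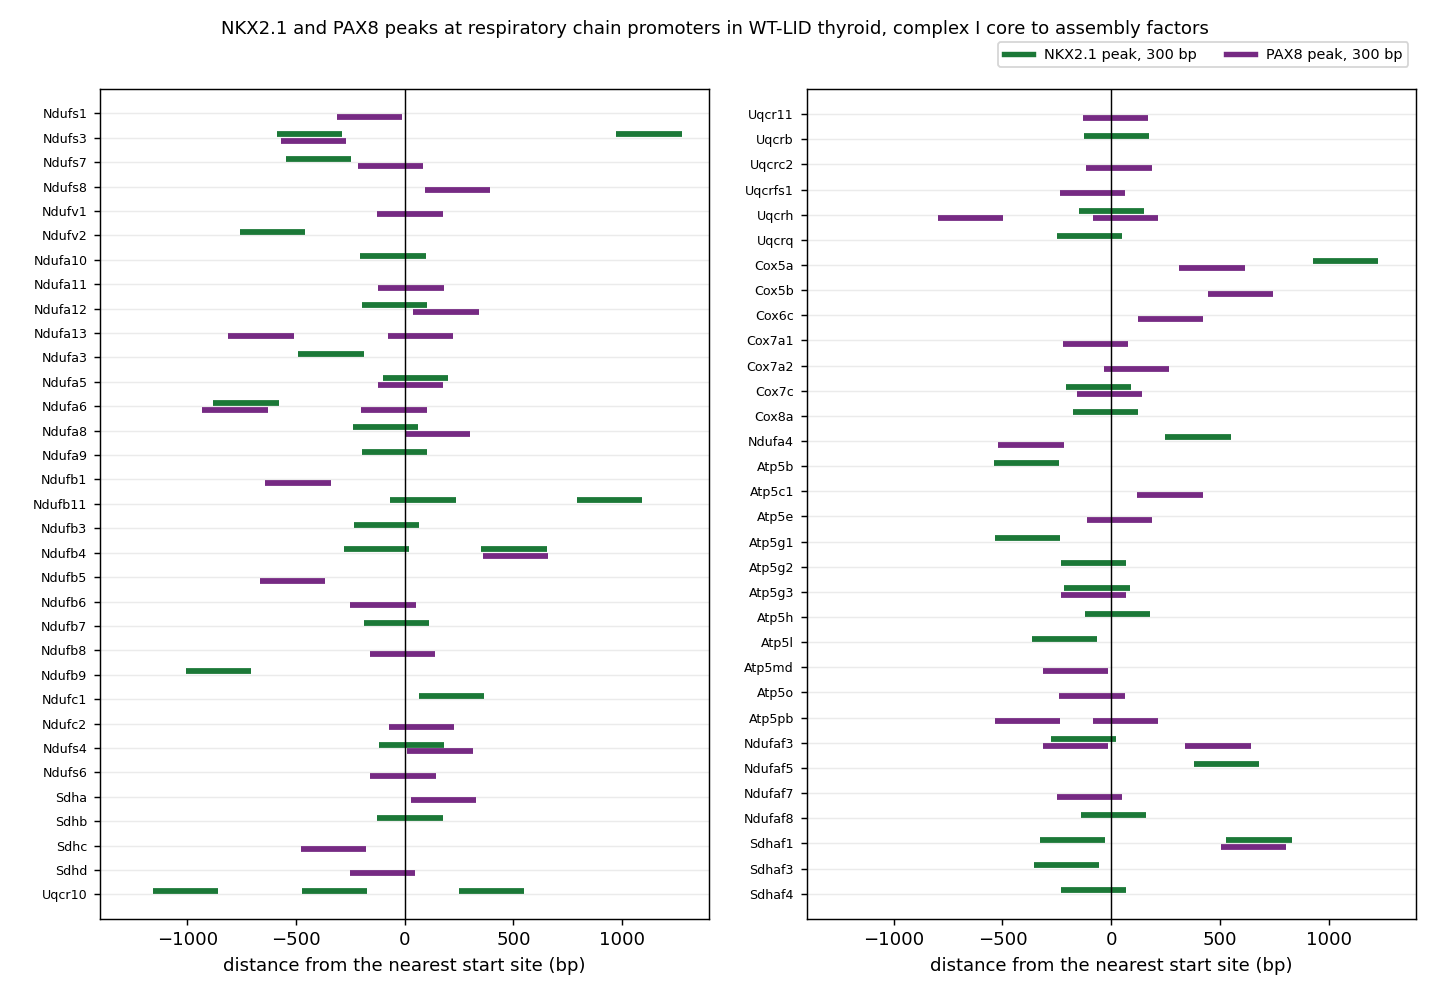
NKX2.1 (green) and PAX8 (purple) peaks of 300 bp at the respiratory chain genes that have one (1 gene is not shown), placed by distance from the nearest start site (bp, negative upstream), in WT-LID thyroid. Bars gather around 0, and 12 genes show a green and a purple bar one above the other.

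Letters of the factors were counted in the same promoters and peaks. CTCAAG was in 18 of 81 respiratory chain promoters (22.2%), against 13.3% of marked and 15.1% of all promoters, and the longer CACTTGA in 0%, against 1.55% and 2.91%. In NKX2.1 peaks at respiratory chain promoters CTCAAG was in 18 of 45 (40%), against 27.3% of NKX2.1 peaks at all promoters, while CACTTGA was in 0 of 45, against 7.85%. CTCAAG followed by G shares the letters TCAAGG with the ERR element, but the whole element TCAAGGTCA was in 1 of the 45 peaks (2.22%). With CTCAAG followed by G left out, the shares with CTCAAG were 22.2% and 20.4%. AAGGTCA was in 15.6% of these NKX2.1 peaks, against 4.6% at all promoters, and in 21.3% of the PAX8 peaks, against 4.48%. GCGTGA, which lies inside the reverse complement of the longer GTCACGC, was in 14 promoters (17.3%, against 11.6% and 8.31%), and GTCACGC in 2 (2.47%, against 4.19% and 2.88%). In PAX8 peaks GCGTGA was in 17% at respiratory chain promoters, against 14.9% at all promoters, and GTCACGC in 4.26%, against 7.26%. Of the 14 genes with GCGTGA, 11 had a PAX8 peak (78.6%), against 27 of 67 without it (40.3%). Over all genes the shares were 46.9% and 28.2%. The letters were sought in the promoter sequence and the peak within 1 kb, so a peak need not hold them. The PAX8 peaks held GCGTGA at Atp5o, Cox7a1, Ndufc2, Sdhd and Uqcr11, but not at Cox5a, Cox7a2, Ndufb1, Ndufb4, Ndufs8 and Sdha. For CTCAAG and NKX2.1 the shares were 50% (9 of 18) and 41.3% (26 of 63), and over all genes 22.6% and 21.4%.

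H3K4me3 width in the 4 groups of respiratory chain genes by factor had no common full order across the libraries. Genes with PAX8 alone were wider than genes with neither factor in each library. Genes with both factors had medians of 1534 bp in Glis3KO-LID, 1547 bp in WT-LID, 1466 bp in Glis3KO-ND and 1675 bp in WT-ND (n = 15), and genes with neither had 1304, 1584, 1413 and 1500 bp (n = 24). Genes with NKX2.1 alone had 1298, 1808, 1643 and 1668 bp (n = 24), and genes with PAX8 alone had 1607, 1719, 1735 and 1623 bp (n = 25). For all marked genes, those with both factors had 1406, 1631, 1584 and 1602 bp and those with neither 1262, 1393, 1345 and 1352 bp. Those with PAX8 alone had 1403, 1584, 1548 and 1566 bp and those with NKX2.1 alone 1322, 1516, 1448 and 1487 bp. All marked genes thus had the same order in every library, from both factors through PAX8 alone and NKX2.1 alone to neither.

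A list of 43 other genes of the same pathway, among them Cyc1, cytochrome c (Cycs), complex IV and III assembly factors and the regulators Nrf1, Gabpa, Yy1, Esrra and Ppargc1a, was marked by H3K4me3 without exception in all 4 libraries. NKX2.1 was at 16 of them (37.2%), PAX8 at 25 (58.1%), both at 12 (27.9%) and overlapping pairs at 8 (18.6%), against 31.6%, 45.4%, 18.2% and 11.9% of all marked genes. H3K27me3 was at 1, Etfa, in Glis3KO-LID. Nrf1, Gabpa and Yy1, which encode factors named above, had at least 1879 bp of H3K4me3 in every library. Esrra, the gene of an ERR, and Ppargc1a, a coactivator of mitochondrial biogenesis, were among the 8 genes with overlapping NKX2.1 and PAX8 peaks. Other regulators in the list differed from them. Nrf1, Gabpa, Ppargc1b and Pprc1 had no peak of either factor, Yy1 had PAX8 alone, and Gabpb1 had both without overlap. Ppargc1a had 1134 bp of H3K4me3 in Glis3KO-LID against 907 bp in WT-LID, and 1201 bp in Glis3KO-ND against 1395 bp in WT-ND.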

How the data were processed

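ChIP-seq peak lists of mouse thyroid were used, 10 in all: H3K4me3 and H3K27me3 in 4 groups each, and NKX2.1 and PAX8 in 1 group each. Per the study's methods and the submitters' processing notes, the authors trimmed reads with cutadapt 1.12, aligned them to mm10 with Bowtie 1.2, discarded duplicates (Picard 1.110) and used HOMER 4.10.3 as the peak caller, region style for histone marks and factor style, against the matching input, for NKX2.1 and PAX8, whose peaks were set to 300 bp. The factor lists were used whole, as deposited. They are longer than the peak sets counted in the study's text, for a reason that was not found, so promoter shares apply to the deposited lists. bedtools 2.24.0 is also named in the notes. The deposited files give the position of each peak and no other value (no count, score or p-value), so a weak peak and a strong one weigh alike and the depth is unknown. Region style joins nearby stretches, so 1 peak can span a pair of neighbouring promoters. Labels and methods differ on the mice of the factor libraries and on the Glis3KO allele.

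Start sites were those of curated RefSeq transcripts (annotation release 108.20200622, GRCm38.p6), 26242 over 21000 protein-coding genes, of chromosomes 1 to 19, X and Y. A gene was marked when a peak overlapped the 1 kb either side of any of its start sites. Covered bases were counted within 1 kb either side of the main start site, the one with most transcripts. The members and gene lists were chosen with earlier results of these data known. Named genes were those unmarked or marked in 1 to 3 libraries, those with H3K27me3 or factor peaks, the 4 widest and 4 narrowest, the 5 with the largest shared difference in each direction by genotype and by diet, and paralog pairs. With 1 library per group no test was run. Coverage counts were tested on simulated intervals. Python 3.11.15 and matplotlib 3.10.9 were used. Alternatives were other windows, a minimum of 500 bp, lists of equal length, the main start site alone, full peak lengths, a 200 bp difference, peak midpoints and predicted transcripts. The values of a few single genes are not reported here. The rat PCCl3 libraries and the unified histone lists were not used here, and the 6 mouse input libraries have no list used here.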

Additional observations from a re-analysis of the deposited data

Results flagged for a closer look

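At 6 genes the covered bases of H3K4me3 differed between Glis3KO and WT by at least 200 bp in opposite directions on the 2 diets. This difference between diets was not tested, since each group is 1 library. Atp5g3 was the gene with more bases in Glis3KO on the LID (247 bp) and fewer on the ND (-398 bp). The other 5 had fewer in Glis3KO on the LID and more on the ND. Sdhaf3, an assembly factor of complex II, differed by -538 bp on the LID and 714 bp on the ND, and Cox7a2 by -307 and 537 bp. Atp5l differed by -667 and 220 bp, Ndufb9 by -478 and 257 bp, and Uqcr11 by -438 and 262 bp. Such genes made up 6.38% of the 94 respiratory chain genes covered in any library, against 8.28% of all genes.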

How the results depend on the processing

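Of 110 values recomputed under other settings, 96 stayed within 1.5 times of the reported value. The number of genes marked by H3K4me3 in all 4 libraries lay between 88 and 89 under the 6 other settings of window, coverage, list length, start site and annotation. A minimum difference of 200 bp lowered every count of differing genes: Glis3KO-LID against WT-LID had 2 with more and 33 with fewer, Glis3KO-ND against WT-ND 14 and 18, WT-LID against WT-ND 18 and 10, and Glis3KO-LID against Glis3KO-ND 5 and 24. The H3K27me3 count in Glis3KO-LID was 4 within 2 kb (Atp5k and Cox6b1 added), 4 with predicted transcripts and 1 with lists of equal length. Genes with both factors numbered 26 within 5 kb and 8 with 1 kb upstream only, and overlapping pairs 7 with 1 kb upstream only. These shifts follow from the construction of each setting (a wider or narrower window, a threshold, more start sites, shorter lists). Of the shifted counts, only those by genotype at 200 bp were set beside all genes (above). Whether the others differ from all genes was not looked at. No paired analysis was possible because each group holds 1 library. The limits are the missing replicates, the missing scores and the unknown depth.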
